A study of Mus musculus with 2 samples.

Results

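The genes described here encode the contractile apparatus of smooth muscle and the plaques that fasten it to the cell membrane, 37 genes in all. They were chosen by name: every measured probe whose gene name was on the list was taken, which gave 64 of the 39429 probes of the array design. Of these probes, 63 passed the filter on dim signals and the other, a probe of Synm, did not, so all 37 genes had a value among the 22316 genes or unnamed features tested. For each gene the brightest kept probe stands for the gene. The data come from ureters of wild-type NMRI mouse embryos of mixed sex (E13.75, days of development), which were dissected and kept on transwell membranes for 18 h. The treated cultures had 10 µg/ml NOGGIN in the medium and the control cultures had none; everything else that the labels give was shared. Total RNA (200 ng per sample) was hybridised to 2 two-colour arrays. Each array carried a control RNA beside a NOGGIN RNA, so the data hold 4 RNA samples. The labels do not say whether the numbered samples came from separate litters, and whole ureters hold several cell types.

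NOGGIN is an extracellular antagonist that captures BMPs, the bone morphogenetic proteins, before they reach the cell surface. The ureter is a tube of urothelium wrapped in mesenchyme, and part of that mesenchyme becomes the smooth muscle that moves urine by peristalsis. Smooth muscle contracts when myosin, switched on by phosphorylation of its regulatory light chain, pulls on actin filaments; the filaments are anchored in dense bodies inside the cell and in adhesion plaques at its membrane. Many of these genes are known targets of serum response factor (SRF), which binds a sequence called the CArG box and works with the coactivator myocardin in smooth muscle. The comparison asks how this set of genes stood when BMP signalling in the explants was to be blocked.

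The sources disagree on the direction. Taken from the dye labels, the log2 ratio (NOGGIN-labelled channel over control-labelled channel) of the BMP target Id1 was 2.21 on array 1 and 2.08 on array 2. In the authors' deposited table the same Id1 probe has signed fold changes of -4.65 and -4.53, under titles that set NOGGIN against control. By the dye labels Id1 was thus higher where BMP signalling was to be blocked, and by the titles it was lower there. Which source is right was not tested, so the word lower below holds for the dye labels only. Every signed value below follows the dye labels, and an exchange of those labels would turn every sign and keep every size. On this reading the other BMP targets were also above 0, with 2.41 and 2.77 for Id2 and 1.43 and 1.47 for Id3, so most of the smooth muscle genes lay on the opposite side from them.

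Most of the 37 genes were lower in the channel labelled NOGGIN. The mean log2 ratio was below 0 for 34 of them, and the median of the 37 means was -0.34, against -0.01 for all features. On both arrays the ratio was below 0 for 25 genes, where 23.3% of all features were, and above 0 for 2 genes, where 20.4% of all features were. In the other 10 genes the arrays differed in sign. These counts take values of any size, such as -0.001 for Tln1 on array 1 and -0.006 for Cnn3 on array 2. The difference was at least 1.5-fold on both arrays for 5 genes (Synpo2, Tagln, Cnn1, Myl9 and Actg2), all lower, which is 13.5% of the 37 against a background of 1.25% lower; no gene was 1.5-fold higher on both, against 0.941%. In limma's moderated test none of the 37 passed an adjusted p of 0.05, and 0% of all features did. At an unadjusted p under 0.05 there were 14 of the genes, all lower, with 3.36% of all features lower and 2.68% higher at that level. With 2 arrays the values below are therefore given as measurements, and none of the single differences passed the correction over the table.

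**Figure D1:**
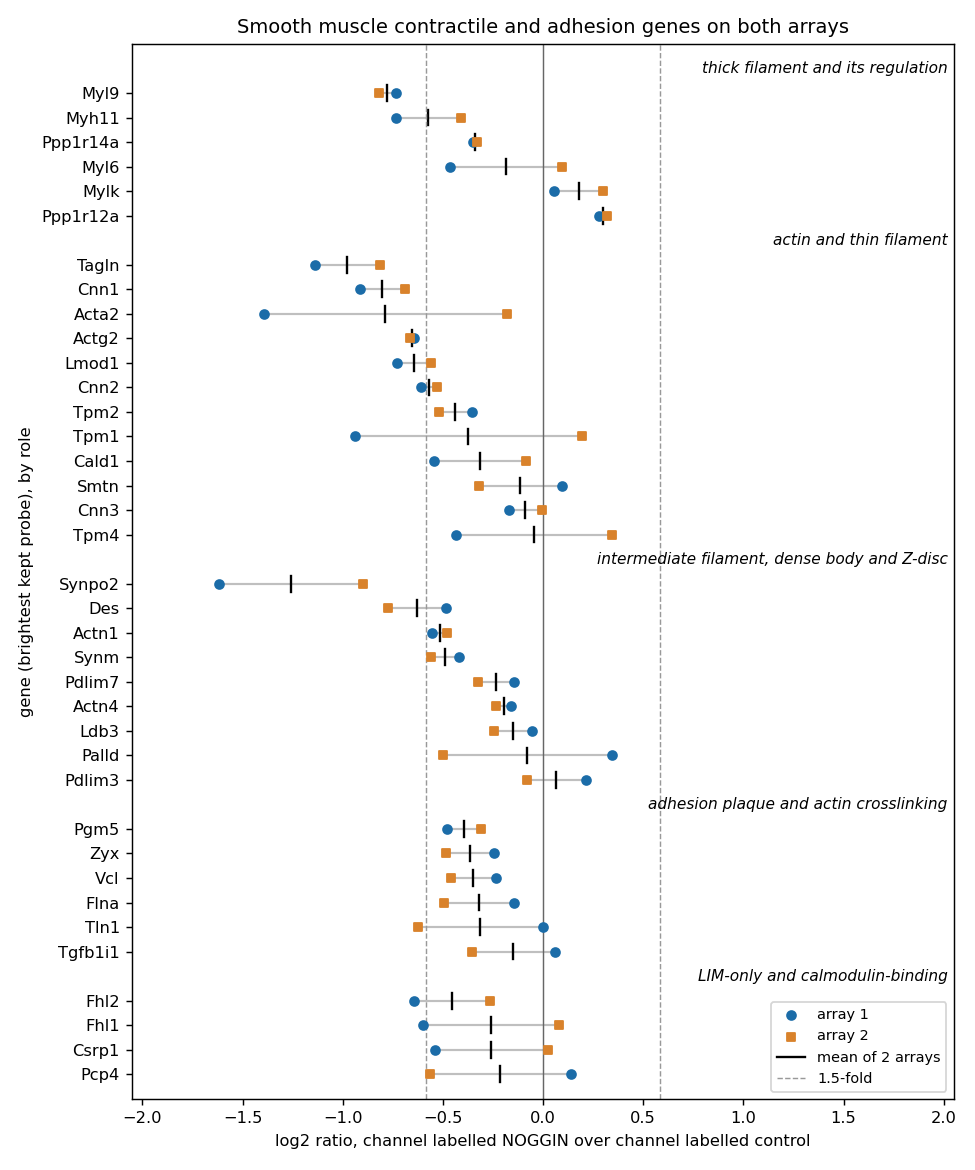
Log2 ratio (NOGGIN-labelled channel over control-labelled channel) for each of the 37 genes, grouped by role; circles are array 1, squares are array 2, black ticks are the mean of the 2 arrays and dashed lines mark 1.5-fold. Both points lie left of 0 for 25 genes and right of 0 for Mylk and Ppp1r12a.

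The levels of the 4 RNA samples restate these ratios, since they were computed from the same signals. For 25 genes both NOGGIN-labelled levels lay below both control-labelled levels, where 17.9% of all features did so, and for 2 genes, Mylk and Ppp1r12a, both lay above, where 14.4% did. Those 25 genes are the same as the 25 with a ratio below 0 on both arrays. Within an array the order of the levels is fixed by the sign of the ratio, so this is no separate support. The count also depends on the scaling of levels between arrays. The linear signals of the 37 genes summed to 1370810 and 1308710 in the control-labelled channels of arrays 1 and 2, and to 997195 and 1111860 in the NOGGIN-labelled channels. In whole-ureter RNA, fewer smooth muscle cells and less RNA of these genes per cell cannot be told apart.

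The genes listed here as smooth muscle markers held every value past the fold rule. Of 11 such markers (Acta2, Actg2, Tagln, Cnn1, Myh11, Smtn, Mylk, Myl9, Lmod1, Synpo2 and Des), 9 were below 0 on both arrays, 1 was above 0 on both and 1 differed in sign. Their median was -0.65, with -0.74 on array 1 and -0.66 on array 2. The other 26 genes had a median of -0.29, with 16 below 0 on both arrays. All 5 genes past the 1.5-fold rule were among the markers, and none of the other 26 passed it. The median of the markers stayed between -0.78 and -0.64 over 12 other ways of processing, and that of the other 26 between -0.31 and -0.25. The marker list was drawn up with earlier results of these data known, so the split is not independent of the values. The difference between the groups was not tested.

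**Figure D2:**
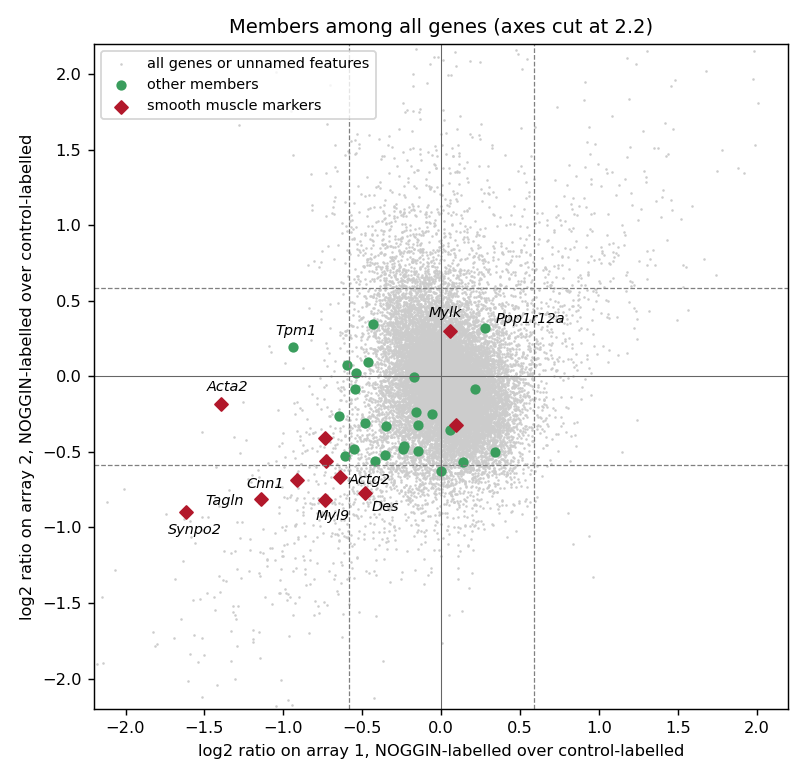
Log2 ratio on array 1 (x axis) against array 2 (y axis), NOGGIN-labelled over control-labelled, for all features (grey), the 11 smooth muscle markers (red diamonds) and the other 26 genes (green circles); dashed lines mark 1.5-fold and features beyond 2.2 are not drawn. The 5 genes past 1.5-fold on both arrays sit in the lower left corner, and Acta2 and Tpm1 lie far left but near 0 on the y axis.

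The probes of the genes that carry this pattern are shown by their leading bases, 30 per probe as the array design gives them, because every value below is the signal of that one oligonucleotide and not of the whole transcript. Synpo2 is listed with each of its probes, since they gave different values; positions are those of the design on build mm9.
Tagln, chr9:45738097-45738156, minus strand: ctttgaaggagacccagcccagcctctaca
Cnn1, chr9:21913058-21913117, plus strand: acacacgcattttggttttgcagtgactgg
Acta2, chr19:34316060-34316119, minus strand: gttttgtggatcagcgcctccagttccttt
Actg2, chr6:83462904-83462963, minus strand: tctggggatccccacaagactgctgtcacc
Myl9, chr2:156607301-156607360, plus strand: cttaggcttgtggagttgtctcagcacccc
Synpo2 at transcript base 7034, chr3:122779459-122779518, minus strand: ctctgtcctcaaaggctgtatgtgaaagat
Synpo2 at transcript base 4399, chr3:122782094-122782153, minus strand: gatataacatgcatttgccatttaccttgt
Synpo2 at transcript base 3168, chr3:122815498-122815557, minus strand: cacaaatgcgcaggcttcttctgtgtactc

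Among the thick filament genes and their regulators, the regulatory light chain gene Myl9 had the lowest mean ratio. Its log2 channel levels (normalized signal) were 16.55 and 16.72 in the control-labelled channels of arrays 1 and 2, and 15.81 and 15.90 in the NOGGIN-labelled channels. The groups did not overlap, and the distance between them was about the same on both arrays. The log2 ratio was -0.78 ± 0.06 (SD, n = 2 arrays), 1.71-fold lower, with an adjusted p of 0.259 in limma's test. Myh11 encodes the smooth muscle myosin heavy chain, the motor itself. Its levels were 10.04 and 9.63 in the control-labelled channels and 9.30 and 9.22 in the NOGGIN-labelled ones. These did not overlap either, and the ratio was -0.57 ± 0.23 (SD, n = 2; adjusted p = 0.544).

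The regulators of myosin lay on both sides of 0. Mylk, the kinase that phosphorylates the regulatory light chain, had levels of 9.07 and 8.99 in the control-labelled channels and 9.13 and 9.29 in the NOGGIN-labelled ones. The NOGGIN-labelled levels were the higher ones, by a ratio of 0.18 ± 0.17 (SD, n = 2; adjusted p = 1). Its other probe was dim, with a share of 0.5 of its spots well above background in the control-labelled channel of array 1, and had 0.10 and -0.09. Ppp1r12a, the subunit that targets the opposing phosphatase to myosin, had control-labelled levels of 15.13 and 14.996 and NOGGIN-labelled levels of 15.41 and 15.31. It was higher on both arrays (0.28 and 0.32, mean 0.30 ± 0.03), and its other probe had 0.28 and 0.84. Ppp1r14a, which inhibits that phosphatase, was lower on both arrays (-0.35 and -0.33, mean -0.34 ± 0.02). The ratio of Ppp1r14a minus that of Ppp1r12a was -0.63 and -0.65 on the 2 arrays, and between -0.77 and -0.58 over the 12 other ways of processing. Myl6, the essential light chain, which is also used outside muscle, had -0.46 on array 1 and 0.09 on array 2, so that its groups overlapped at the brightest probe. At its other probe they did not, with levels of 16.57 and 16.46 in the control-labelled channels, 16.24 and 16.17 in the NOGGIN-labelled ones, and ratios of -0.34 and -0.29.

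The actin filament genes held most of the markers. Of 12 genes of actin and its binding proteins, 9 were below 0 on both arrays and 3 differed in sign, with a median of -0.50. Tagln encodes transgelin, an actin-binding protein of the calponin family and an early smooth muscle marker. Its control-labelled levels were 16.22 and 16.23 and its NOGGIN-labelled levels 15.07 and 15.42. The lowest control level was thus well above the highest NOGGIN level, and the ratio was -0.98 ± 0.23 (SD, n = 2), 1.97-fold lower (adjusted p = 0.194). Cnn1, calponin 1, which restrains actomyosin in differentiated smooth muscle, had control-labelled levels of 14.16 and 14.04 and NOGGIN-labelled levels of 13.24 and 13.35. The groups were apart on both arrays and the ratio was -0.80 ± 0.16 (SD, n = 2), 1.74-fold lower (adjusted p = 0.264).

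The smooth muscle actins differed in the spread between their arrays. Acta2, the alpha actin of vascular and visceral smooth muscle, had control-labelled levels of 17.20 and 16.79 and NOGGIN-labelled levels of 15.81 and 16.61. The NOGGIN-labelled levels were below both control levels, but the distance was 2.63-fold on array 1 and 1.13-fold on array 2. Its mean ratio of -0.79 ± 0.86 (SD, n = 2; adjusted p = 0.811) therefore rests on array 1, with -1.39 there and -0.18 on array 2. Actg2, the gamma actin typical of visceral smooth muscle, had levels of 13.15 and 13.30 in the control-labelled channels and 12.51 and 12.64 in the NOGGIN-labelled ones. Both arrays gave nearly the same distance, and the ratio was -0.65 ± 0.02 (SD, n = 2), 1.57-fold lower (adjusted p = 0.364). Among the other actins the array difference of Acta2 recurred: Acta1, the skeletal actin, had -1.52 and -0.37, and the cytoplasmic actins Actb and Actg1 had -0.57 and 0.25, and -0.25 and 0.64. The cardiac actin Actc1 was above 0 on both arrays (0.82 and 0.56). Of these 6 actins, Actg2 had the arrays closest together, with -0.64 and -0.66.

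Lmod1, leiomodin, which starts new actin filaments in smooth muscle, was dim. Its levels were 7.49 and 7.42 in the control-labelled channels and 6.76 and 6.87 in the NOGGIN-labelled ones, and a share of 0.5 of its spots was well above background in the NOGGIN-labelled channel of array 2. The groups did not overlap, and the ratio was -0.64 ± 0.12 (SD, n = 2; adjusted p = 0.387). This value depended on how the dim signal was treated, since it ran from -1.35 to -0.64 over 11 of the other ways of processing. Smtn, smoothelin, a marker of contractile smooth muscle, did not follow the other markers. Its levels were 14.42 and 14.74 in the control-labelled channels and 14.52 and 14.41 in the NOGGIN-labelled ones. These overlapped, and the ratio was 0.10 on array 1 and -0.32 on array 2 (mean -0.11 ± 0.30). Its dimmer probe, nearer the 5′ end, had -0.30 and -0.50.

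**Figure D3:**
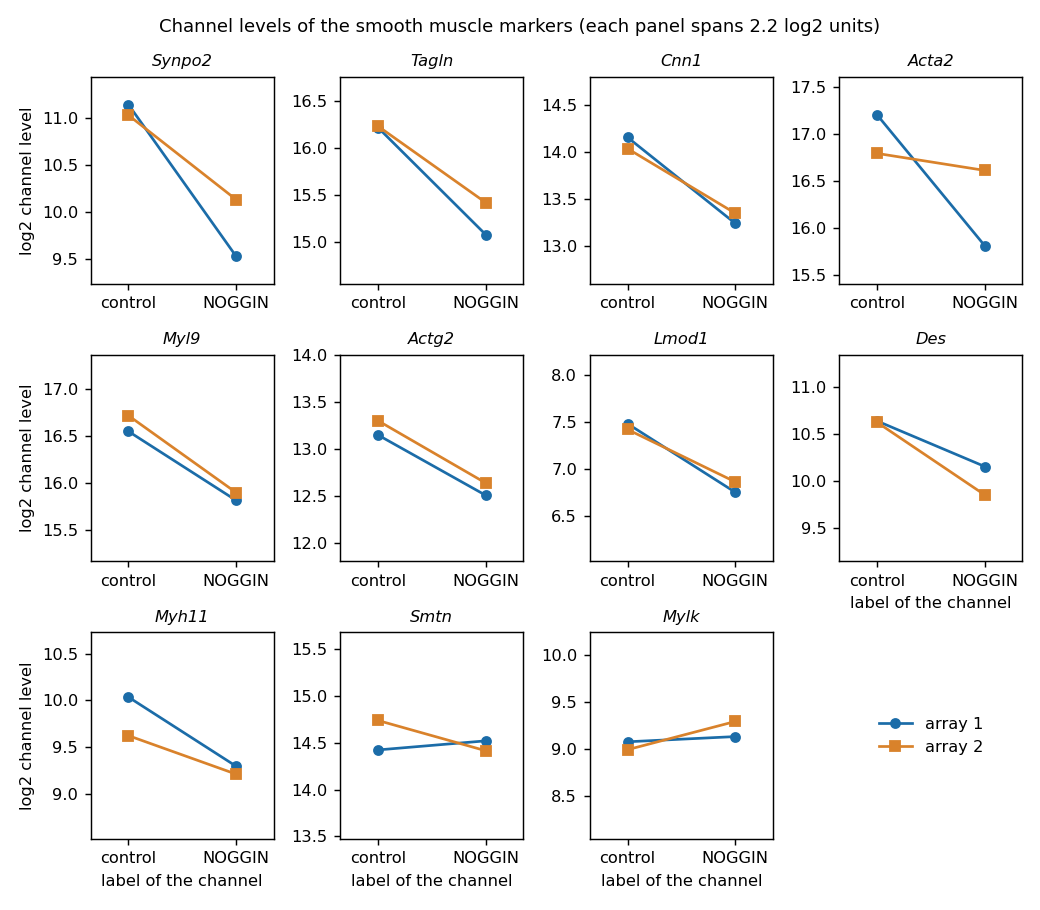
Log2 channel level of the 11 smooth muscle markers in the control-labelled and NOGGIN-labelled channels of array 1 (circles) and array 2 (squares), a line joining the channels of an array; every panel spans 2.2 log2 units, and levels of different genes are not comparable. The lines run down on both arrays in 9 panels, cross in Smtn and run up in Mylk.

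The calponin family differed among its members. Cnn1, the form of differentiated smooth muscle, had the ratio given above; Cnn2, which is made in many cell types, had -0.61 and -0.53 (mean -0.57 ± 0.06; adjusted p = 0.472) and -0.62 and -0.23 at its other probe, and Cnn3, the acidic form, had -0.17 and -0.01. On each array Cnn1 was below Cnn3, by 0.75 and 0.68 in log2 ratio, and over the 12 other ways of processing the difference of Cnn1 minus Cnn3 stayed between -0.76 and -0.71. Cnn2 minus Cnn3 was -0.44 and -0.52. Tagln stood in the same way to its paralog Tagln2, which is not restricted to muscle, with differences of -0.76 and -0.71. Tagln2 itself had -0.38 and -0.10, and Tagln3 had 0.21 and -0.41. The value of Cnn1 minus Cnn2 was smaller, with -0.30 and -0.16. The brightest probe of Cnn3 is the value used here, and the other probe of the same transcript had 0.18 and 0.03. A further probe that carries the name Cnn3 had -0.07 and -0.49, but the design places it on the minus strand of chromosome 3 and those of the Cnn3 transcript on the plus strand, and whether it reads that transcript was not tested.

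The tropomyosins, which lie along the actin filament, did not share a value. Tpm2 had -0.36 and -0.52 and its other probe -0.35 and -0.48, so that its probes and both arrays gave similar values (mean -0.44 ± 0.12; adjusted p = 0.757). Tpm1 and Tpm4 gave opposite signs on the arrays, with -0.94 and 0.19 for Tpm1 and -0.43 and 0.34 for Tpm4. The control-labelled levels of Tpm1 were 16.28 and 15.58 and the NOGGIN-labelled levels 15.34 and 15.78, which overlapped. Tpm1 is spliced into many forms and had 5 kept probes. Of these, the overlapping pair on chromosome 9 (chr9:66875782-66875841 and chr9:66875796-66875855, mm9, minus strand) gave -0.54 and -0.52, and -0.31 and -0.35, without the array difference of the brightest probe. The remaining probes differed in sign between the arrays as the brightest did, with -0.38 and 0.27, and -0.31 and 0.08. Tpm3, the other member of the family, had -0.14 and 0.12. Cald1, caldesmon, an actin-binding brake on contraction, had -0.55 and -0.08, and its other probe -0.69 and 0.10.

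Of the 9 genes of intermediate filaments, dense bodies and Z-disc proteins, 7 were below 0 on both arrays and 2 differed in sign. Synpo2, synaptopodin 2, an actin-binding protein of these anchor points, had the lowest mean of all 37 genes and rank 80 from the lowest of 22316 features. Its brightest probe had levels of 11.15 and 11.03 in the control-labelled channels and 9.53 and 10.14 in the NOGGIN-labelled ones. The groups did not overlap, and the ratio was -1.26 ± 0.51 (SD, n = 2), 2.39-fold lower (adjusted p = 0.194). The other Synpo2 probes shown above did not give that value. The probe at transcript base 4399 had -0.42 and 0.44, and that at base 3168 had -0.09 and -0.15. Both were dim, with levels between 6.54 and 7.23. At base 3168 no spot was well above background in the red channel of either array, which carried control RNA on array 1 and NOGGIN RNA on array 2. The mean of all kept probes gave -0.46, at which Synpo2 is no longer past the 1.5-fold rule.

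Des, desmin, the muscle intermediate filament, had levels of 10.64 and 10.63 in the control-labelled channels and 10.16 and 9.86 in the NOGGIN-labelled ones. The control levels were alike and the NOGGIN-labelled levels both lower, with a ratio of -0.63 ± 0.20 (SD, n = 2; adjusted p = 0.453). Desmin is not particular to smooth muscle, since all muscle makes it. Its partner Synm, synemin, had -0.42 and -0.56 at its brightest probe (mean -0.49 ± 0.10; adjusted p = 0.623), and its dimmer kept probes had means of -0.32, -0.13 and 0.02. The alpha-actinins crosslink actin at dense bodies and plaques. Actn1, with levels of 10.48 and 10.30 in the control-labelled channels and 9.93 and 9.82 in the NOGGIN-labelled ones, had a ratio of -0.52 ± 0.05 (SD, n = 2; adjusted p = 0.554) from a probe over a splice junction. Actn4, the other non-muscle form, had -0.16 and -0.23. Of the muscle forms, Actn3 had 0.83 and 0.50. Actn2 was too dim for a firm ratio, since none of its spots was well above background in the NOGGIN-labelled channel of array 2 and a share of 0.5 was in the control-labelled channel of array 1; its measured values were -0.33 and -0.97. The PDZ-LIM scaffold genes were nearer 0, with means of -0.23 for Pdlim7, -0.15 for Ldb3 and 0.07 for Pdlim3. The other probes of Pdlim7 had means of -0.06 and -0.36, and the dim other probe of Ldb3 had 0.02. Palld, palladin, a scaffold of dense bodies, had 0.34 and -0.50.

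Of the 6 adhesion plaque genes, 5 were below 0 on both arrays and 1 differed in sign, with a median of -0.34 (-0.19 on array 1 and -0.47 on array 2). None passed the 1.5-fold rule or an unadjusted p of 0.05. Pgm5, aciculin, a plaque protein related to phosphoglucomutases and typical of smooth muscle, had -0.48 and -0.31 (mean -0.39 ± 0.12; adjusted p = 0.871), and its other probes had means of -0.55 and -0.22. Zyx, zyxin, and Vcl, vinculin, which link actin to integrin sites, had means of -0.36 ± 0.17 and -0.35 ± 0.16. The levels of Vcl were 14.25 and 14.32 in the control-labelled channels and 14.01 and 13.86 in the NOGGIN-labelled ones. They did not overlap, but the dimmer Vcl probe, which lies over a splice junction, had -0.63 on array 1 and 0.87 on array 2. It was the only probe of the 63 kept that passed 1.5-fold in opposite directions. Flna, filamin A, an actin crosslinker, had -0.15 and -0.50. Tln1, talin 1, which joins integrins to actin, had -0.001 and -0.63, with -0.36 and -0.28 at its dimmer probe. Its brightest probe thus counts as below 0 on array 1 by a negligible margin. Tgfb1i1, the LIM adaptor Hic-5, had 0.06 and -0.35 at its brightest probe and -0.37 and -0.30 at its dimmer one, so the difference in sign was seen at a single probe.

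Of the 5 role groups, the LIM-only and calmodulin-binding genes had the arrays farthest apart. Of 4 genes only Fhl2, a LIM-only cofactor of transcription factors, was below 0 on both arrays, with -0.64 and -0.26 (mean -0.45 ± 0.27; adjusted p = 0.823). Fhl1 had -0.60 and 0.08, Csrp1, a LIM protein of smooth muscle, had -0.54 and 0.03, and Pcp4, a calmodulin-binding peptide, had 0.14 and -0.56. The median distance between the arrays was 0.62 for these 4 genes, against 0.29 for the 37 and 0.26 for all features. The dyes were exchanged between the arrays, so a dye effect and a difference between cultures cannot be told apart here.

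Array 1 alone took 12 of the 37 genes past 1.5-fold lower and array 2 alone took 7. No share of all features was set beside these single-array counts, so they cannot be read against a background. The 7 that passed on array 1 and not on array 2 were Acta2, Lmod1, Myh11, Cnn2, Fhl2, Tpm1 and Fhl1. Those that passed on array 2 and not on array 1 were Des and Tln1. The medians of the 37 were -0.43 on array 1 and -0.35 on array 2. For all features the medians were 0.02 on array 1 and -0.05 on array 2. Of the 37 genes, 20 were lower on array 1 than on array 2.

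**Figure D4:**
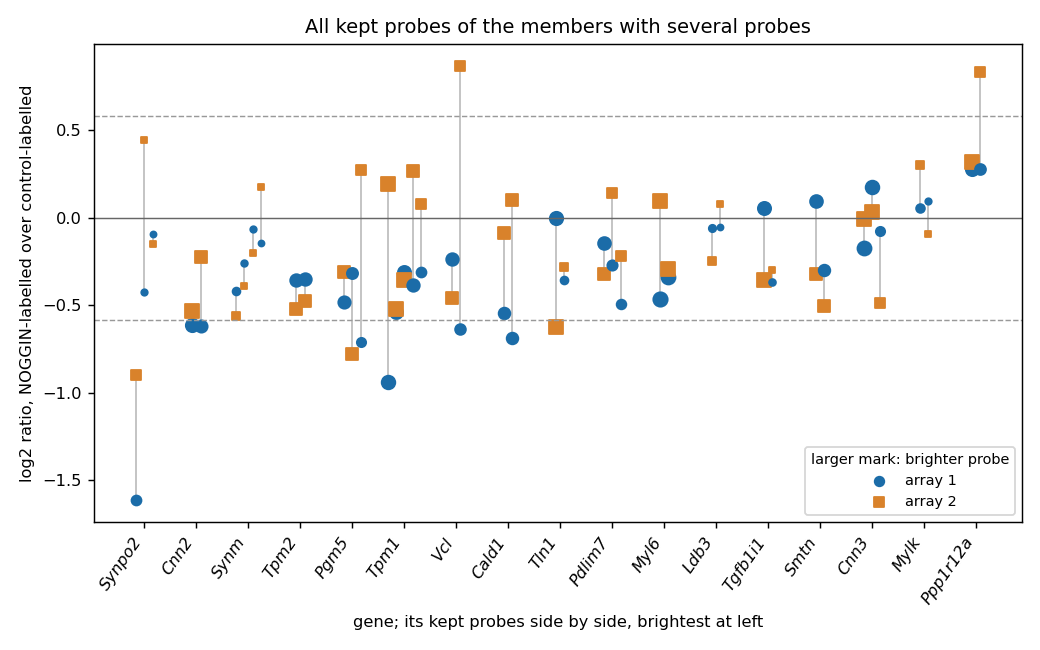
Log2 ratio (y axis, NOGGIN-labelled over control-labelled) on array 1 (circles) and array 2 (squares) for every kept probe of the 17 genes with several kept probes, the brightest at the left and larger marks for brighter probes; dashed lines mark 1.5-fold. The brightest Synpo2 probe and its dimmer ones are far apart, and the Tpm2 probes lie together.

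The value of a gene depended on the probe in several cases. Of the 17 genes with several kept probes, 5 had probes whose mean ratios differed in sign, and 20 genes had a single probe, among them Acta2, Actg2, Tagln, Cnn1, Myl9, Myh11, Lmod1 and Des. Over all 63 kept probes, 39 were below 0 on both arrays and 4 above. For 13 transcripts with several of these probes, the brightest was the most 3′ probe in 7. The authors' deposited table holds signed fold changes for the brightest probes. They were 2.29 and 1.76 for Tagln, 1.99 and 1.49 for Cnn1 and 1.70 and 1.69 for Myl9. For Synpo2 the authors' deposited table has 3.42 and 2.01, for Acta2 2.22 and 1.44, and for Actg2 1.64 and 1.52. By the dye labels these positive values are control over NOGGIN. By the titles they would be NOGGIN over control, the opposite direction, as for Id1.

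Promoter sequences were set beside these values because CArG boxes are the known link between many of these genes and SRF. A window from 250 bases before to 50 bases after the start was held in the RefSeq promoter table (build GRCm38.p6) for 33 of the 37 genes, and Myh11, Actg2, Tagln and Tgfb1i1 were not matched. A CArG box, searched by its consensus on both strands, was in the window of 7 of the 33 genes (21.2%), against 488 of 27025 genes (1.81%) in the whole table. The boxes are shown with 20 bases on each side, 5′ to 3′ on the strand of the gene, with the box in capitals. Fhl2 is given for each of 2 starts.
Myl9, chr2:156775283-156775332, plus strand: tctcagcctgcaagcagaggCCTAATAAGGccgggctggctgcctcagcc
Cnn2, chr10:79988524-79988573, plus strand: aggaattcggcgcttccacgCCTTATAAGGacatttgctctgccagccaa
Fhl2, chr1:43163963-43164012, minus strand: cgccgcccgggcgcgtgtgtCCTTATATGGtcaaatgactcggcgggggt
Fhl2, chr1:43196828-43196877, minus strand: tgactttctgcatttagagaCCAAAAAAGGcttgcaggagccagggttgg
Vcl, chr14:20929151-20929200, plus strand: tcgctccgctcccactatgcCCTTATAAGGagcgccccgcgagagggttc
Fhl1, chrX:56779561-56779610, plus strand: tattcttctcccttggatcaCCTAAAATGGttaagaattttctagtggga
Myl6, chr10:128493030-128493079, minus strand: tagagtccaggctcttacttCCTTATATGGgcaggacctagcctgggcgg
Ldb3, chr14:34588687-34588736, minus strand: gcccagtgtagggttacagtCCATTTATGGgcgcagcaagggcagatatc

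The box of Myl9 began 161 bases before the start and that of Cnn2 56 bases before it. Cnn2 and Vcl hold the same 10 letters, as do Myl6 and the Fhl2 start listed before the other. The genes with a box had a median log2 ratio of -0.35, from -0.78 for Myl9 to -0.15 for Ldb3. The 26 genes with a window and no box had -0.32, from -1.26 to 0.30, a range that includes that of the genes with a box. A match describes letters in this window only. The search allowed no mismatch, so a gene whose site departs from the consensus counts here as having no box.

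The other genes of this system, from a list of 59 symbols, were nearer 0. Of 57 measured, 31 were below 0 on both arrays, 7 above and 19 differed in sign, with a median of -0.16. By the 1.5-fold rule 4 were lower and 1 was higher, and none passed an adjusted p of 0.05. The lower ones were Tnnt2, a thin filament troponin of heart muscle (-1.65 and -1.61), Lims2, an adaptor at integrin sites (-1.56 and -1.11), Nexn, an actin-binding protein (-1.74 and -0.91), and Casq2, a calcium store protein (-1.33 and -1.17). Myocd, the myocardin gene, was the higher one, with 1.17 and 0.94 (mean 1.05 ± 0.16; adjusted p = 0.16). It thus lay on the side opposite to Tagln, Cnn1, Myl9 and Actg2. Srf had -0.22 and -0.19. The potassium channel gene Kcnma1 had -0.58 and -0.84, just short of the rule on array 1. Cav1 had the highest mean of the list, with 0.50 and 1.64, and was also short of the rule on array 1. Irag1 is the newer name of Mrvi1, which was measured with -0.34 and -0.09, and the probe of Pln was too dim to be kept.

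Markers of other cell types of the explant were measured beside these genes. The filter on dim signals was passed by all 11 smooth muscle and all 13 urothelial markers, so the muscle and the epithelium of the labelled tissue were both detected. Fibroblast and adventitia markers lay on the same side as the smooth muscle genes: 9 of 10 were below 0 on both arrays and Postn was above, with a median of -0.43. Their linear signals summed to 1006760 and 998051 in the control-labelled channels and to 730759 and 762573 in the NOGGIN-labelled ones. Skeletal and cardiac muscle markers had 7 of 11 below 0 on both arrays and 1 above, with a median of -0.63 and sums of 28423.9 and 31986.9 against 28329.5 and 33505.6. Des and Tnnt2 stand in that list too, and its median is the value of Des. By the 1.5-fold rule 3 of the 11 were lower, against 1.25% of all features, and none was higher. These were Myh3 (-1.80 and -3.12), Myog (-1.57 and -1.48) and Tnnt2 (-1.65 and -1.61). Actc1, the brightest of the 11, was the one above 0 on both arrays (0.82 and 0.56). The probes of Myod1, Myf5 and Ckm were too dim to be kept. Urothelial markers had 3 of 13 below 0 on both arrays and 5 above, with a median of 0.07 and sums of 262324 and 296555 against 322843 and 289636. Endothelial markers had 1 of 8 below and 5 above (median 0.19), macrophage markers 5 of 9 below and 1 above (median -0.17), and nephron and renal stroma markers 5 of 8 below and 1 above (median -0.17). None of 8 neural and glial markers was below 0 on both arrays (median 0.14), and 1 of 4 red blood cell markers was (median 0.04). By the 1.5-fold rule 2 of the 8 nephron and renal stroma markers were lower, Wt1 (-0.91 and -0.89) and Lhx1 (-0.72 and -1.52). Higher by the rule, against 0.941% of all features, were 1 of the 13 urothelial markers, Upk3b (0.92 and 0.86), and 1 of the 8 neural and glial markers, S100b (1.14 and 1.00). The part of any of these cell types in the values of the smooth muscle genes was not tested.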

How the data were processed

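Both arrays lay on a single slide and scan, and each is 1 replicate. Control RNA was red (AlexaFluor647) and NOGGIN RNA green (AlexaFluor555) on array 1, with dyes exchanged on array 2, per the labels. The deposited scanner files hold spot intensity values, per the file headers, from Agilent Feature Extraction 10.7.3.1 (per the submitters' processing notes), and a log10 ratio of red over green. A further table that the authors deposited gives each probe a signed score. Its values behave as linear fold changes, since the medians were 1 and none lay between -1 and 1. On a log scale they correlated with the red over green ratio (0.905 for array 1, -0.952 for array 2). The sources used here do not give its normalization.

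Mean signals were background-corrected (normexp, offset 50) and loess-normalized with limma 3.58.1 in R 4.3.3. Outlier spots (3.36% and 3.09%) were dropped, no spot was saturated, and the mean of a probe's 4 spots was taken. The filter on dim signals kept the 29645 probes with most spots well above background in either channel or both, on each array. In the channels labelled NOGGIN 76.9% and 66.4% of probes were above background, and in those labelled control 65.3% and 76.4%. By dye, the green channels had the higher shares (76.9% and 76.4%) and the red channels the lower ones (65.3% and 66.4%). The low shares of spots given above for Lmod1, Actn2 and the dimmer Mylk probe were also from red channels. Names were updated through RefSeq accessions (28328 probes matched, 71.8%). Exon and UTR annotation of mm9 was not used here. Channel levels were scaled between arrays with Aquantile. The limma test (lmFit, eBayes, dye-coded, two-sided, Benjamini-Hochberg over 22316 features) has 1 residual and 4.34 prior degrees of freedom, and was tested on simulated data. Its p-values measure only the spread between these samples, which may be technical, and the number of arrays limits the precision.

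Members and lists were chosen with earlier results of these data known. All 37 genes are named. Channel levels, mean ratio and SD are given for the 11 markers, which include all genes past the 1.5-fold rule, with an adjusted p for each but Smtn. The rule for other genes takes Myocd, Srf, Id1, Id2, Id3 and genes of the other smooth muscle and adhesion list past the rule. It also takes paralogs in the calponin, tropomyosin, actin and alpha-actinin families. Kcnma1, Mrvi1 and other genes were named after their values were seen. Alternatives covered background, signal, normalization, filter, spots, thresholds, variance model, choice of probe, each array alone and the authors' values. Figures were drawn with matplotlib 3.10.9.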

Additional observations from a re-analysis of the deposited data

How the results depend on the processing

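The count of 5 genes lower by the 1.5-fold rule became 3 with scale normalization between arrays (Myl9, Synpo2 and Tagln) and 0 at 2-fold, ran from 7 to 12 on single arrays, and was between 4 and 7 in the other 10 settings. On the processed signals it was 7, with Lmod1, Myh11 and Synm in and Cnn1 out. The share of all features lower by the rule also moved with the setting. It was 1.25% in the main setting, 2.08% on the processed signals, 0.874% with median centring, 1.28% with scale normalization and 0.408% at 2-fold. No such share is given for single arrays. Tagln and Myl9 were past the rule in each setting at 1.5-fold. The median of -0.34 ran from -0.43 to -0.35 on single arrays and from -0.38 to -0.29 in the 12 other settings. No gene was higher by the rule in any setting, and none of the 37 passed its adjusted threshold in the 12 settings with a test, although up to 141 of all features did (trend and robust variance). Of 443 values of single genes under those settings, 0 turned sign. This does not bear on the direction itself, because the authors' values were first turned to follow the dye labels. The settings that changed only the thresholds or the variance model left every ratio as it was. Single arrays turned 10 of 74: the values of the 2 arrays ran from -0.32 to 0.10 for Smtn, -0.46 to 0.095 for Myl6, -0.94 to 0.19 for Tpm1, -0.43 to 0.34 for Tpm4, -0.56 to 0.14 for Pcp4, -0.54 to 0.025 for Csrp1, -0.50 to 0.34 for Palld, -0.60 to 0.078 for Fhl1, -0.082 to 0.21 for Pdlim3 and -0.35 to 0.057 for Tgfb1i1. The 25 genes whose channel levels did not overlap, NOGGIN-labelled below, became 18 without normalization between arrays. The causes were not tested. A single array gives no test, and the values of dim probes (Lmod1, the other Synpo2 probes) are limited by their signal over background. The within-array ratios already pair the 2 RNAs of an array, so the test is a paired one and no further pairing was added. A dye term leaves no residual degree of freedom.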
